A study of Mus musculus with 12 samples.

Results

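The growth hormone and STAT5 axis was taken here as 9 mouse genes, namely Ghr, Jak2, Stat5a, Stat5b, Igf1, Igfals, Cish, Socs2 and Bcl6, and the open chromatin around them. A region belonged to a gene when it overlapped the gene's annotated span or lay within 30 kb of it. Accessible regions were joined over 12 libraries, and 347 of 292665 joined regions met this rule. Of these, 180 were listed in at least 3 libraries and were tested, among 138538 tested regions in all. The other 167 regions were listed in only 1 or 2 libraries and were not tested.

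Chromatin was profiled by ATAC-seq, in which a transposase cuts accessible DNA, in hepatocytes isolated from mouse liver by collagenase perfusion, with 3 mice and 3 libraries in each of 4 groups. The groups were Alb-Cre/FBXL5F/F mice on 0.1% DDC, FBXL5F/F mice on 0.1% DDC, Alb-Cre/FBXL5F/F mice on the standard diet and FBXL5F/F mice on the standard diet, each diet given for 2 weeks. All mice carried the floxed Fbxl5 alleles, so the FBXL5F/F animals are floxed controls without Cre. In Alb-Cre/FBXL5F/F mice, called Fbxl5-deleted below, the albumin promoter drives Cre and so deletion in hepatocytes. The labels do not say whether other liver cells keep the gene. DDC is 3,5-diethoxycarbonyl-1,4-dihydrocollidine, a compound that blocks heme synthesis and causes cholestatic liver injury, and FBXL5 is a ubiquitin ligase subunit that degrades iron regulatory proteins. The mice's age, sex and strain are not stated in the labels.

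Growth hormone from the pituitary binds its receptor GHR on hepatocytes, and the receptor-bound kinase JAK2 then phosphorylates the transcription factors STAT5A and STAT5B. STAT5 dimers enter the nucleus and bind a palindromic element, and their liver targets include Igf1, Igfals, Cish, Socs2 and Bcl6. IGF1 and the acid-labile subunit encoded by Igfals are secreted into blood, CIS and SOCS2 damp receptor signalling, and BCL6 is a repressor that can occupy STAT5 sites.

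The element bound by STAT5 can be written TTCNNNGAA, which reads the same on both strands. Promoter sequences from RefSeq on GRCm38.p6, the assembly behind mm10, matched 8 of the 9 genes with 14 annotated starts; Socs2 had no entry. Over 250 bases before and 30 bases after each start, 5 of the 14 member promoters held at least 1 TTCNNNGAA, against 7.83% of 32851 promoters of the same length. No match lay in these windows of Ghr, Jak2, Stat5a, Stat5b or Igf1. The sequences below are shown because 3 target genes differ in this element. Cish and Bcl6 hold several copies at a start that was accessible in these libraries. Igf1, which held the region with the lowest adjusted p of the axis, holds none at the single start examined. That start, at base 87861111, lies inside the Igf1 span, which begins at base 87858265. The beginning of the span was not examined, and the Igf1 start below means this internal one. Capitals mark TTCNNNGAA.
Cish, chr9:107296409-107296688, plus strand: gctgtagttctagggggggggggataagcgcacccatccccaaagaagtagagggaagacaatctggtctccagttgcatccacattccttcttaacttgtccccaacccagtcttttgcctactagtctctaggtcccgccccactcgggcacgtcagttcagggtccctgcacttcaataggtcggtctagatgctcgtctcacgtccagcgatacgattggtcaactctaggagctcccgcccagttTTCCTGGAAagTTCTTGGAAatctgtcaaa
Bcl6, chr16:23981254-23981533, minus strand: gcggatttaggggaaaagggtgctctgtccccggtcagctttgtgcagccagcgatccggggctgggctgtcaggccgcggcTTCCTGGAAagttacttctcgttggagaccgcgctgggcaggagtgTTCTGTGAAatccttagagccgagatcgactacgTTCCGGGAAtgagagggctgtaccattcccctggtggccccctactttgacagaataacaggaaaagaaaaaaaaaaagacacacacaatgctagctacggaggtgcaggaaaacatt
Igf1, chr10:87860861-87861140, plus strand: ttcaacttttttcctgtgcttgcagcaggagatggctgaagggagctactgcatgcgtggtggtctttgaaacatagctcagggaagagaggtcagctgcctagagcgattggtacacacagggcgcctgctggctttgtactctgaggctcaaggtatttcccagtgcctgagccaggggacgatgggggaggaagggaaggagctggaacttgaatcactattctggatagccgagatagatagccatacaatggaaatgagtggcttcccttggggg
In Cish, TTCCTGGAA began at base 1 of the transcript and TTCTTGGAA at base 12. In Bcl6, TTCCTGGAA, TTCTGTGAA and TTCCGGGAA began at positions −168, −122 and −88 relative to the start. Only 134 promoters, 0.408% of the 32851, held 2 or more matches. Igfals held 1 match at each of 2 starts, TTCTCAGAA at −236 of one and TTCCTAGAA at −58 of the other. These are matches of letters, and no factor's binding was measured.

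The authors' list for each library gives every peak's fold enrichment, the height of the peak over the background expected in the same library. Libraries held 137034 to 262080 peaks, and the strongest 137034 of each were kept so that all lists had one length. A region's rank from the top of its library is given below as a percentage, so a small percentage is a strong peak. For tests the rank was placed on a common log2 scale of fold enrichment, and a region not kept in a list took the lowest value of that scale. Differences involving such absences are therefore approximate. Libraries 1 and 3 of the Fbxl5-deleted standard-diet mice differed from the rest. They held 262080 and 260622 peaks, and no other library held more than 202912. Their kept peaks had a median fold enrichment of 3.67 and 4.01, below the 4.37 to 5.40 of the remaining libraries. By group that median was 4.48 to 4.96 in Fbxl5-deleted mice on DDC, 4.74 to 5.40 in controls on DDC, 3.67 to 4.49 in Fbxl5-deleted mice on the standard diet and 4.37 to 4.59 in controls on the standard diet. The span of Fbxl5 held 2 tested regions, neither called between genotypes on either diet (lowest adjusted p 0.868, limma). The labels do not say which exons are floxed, and these regions therefore do not check the deletion.

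The hepatocyte label was checked at gene starts. At least 9 of 10 hepatocyte markers, among them Alb and Ttr, had a kept peak within 1 kb of the start in every library. Of 8 macrophage and myeloid markers, 2 had a peak in each Fbxl5-deleted DDC library, 3 to 5 in control DDC libraries, 0 to 1 in Fbxl5-deleted standard-diet libraries and 0 to 2 in control standard-diet libraries. The mean percentile over these 8 markers, with 0 for an absent peak, was 2.2 to 6.9 in Fbxl5-deleted DDC libraries, 10.7 to 16.4 in control DDC libraries, 0.0 to 3.3 in Fbxl5-deleted standard-diet libraries and 0.0 to 1.5 in control standard-diet libraries. The Kupffer cell genes Clec4f and Vsig4 had no peak in any library. Markers of cholangiocytes (4 to 6 of 8), stellate cells and fibroblasts (3 to 5 of 8), endothelium (2 to 4 of 8) and lymphocytes (1 to 2 of 8) had overlapping ranges in the 4 groups; Krt19 and Cftr, Dcn, Pecam1 and Cd3e had no peak in any library. The part of other cell types in the results below was not tested, and a region that is open in more cells cannot be told apart from one that is more open in each cell.

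The 9 genes held between 11 and 43 tested regions each, from Jak2 with 11 to Ghr, whose span is the longest, with 43. Stat5b had 32, Igf1 29, Stat5a 20, Bcl6 19, Socs2 18, Cish 13 and Igfals 12. Stat5a and Stat5b are neighbours on chromosome 11, so their 30 kb windows share regions, and the 2 genes are close copies, so reads in their exons may be split between them. Of the 180 regions, 110 overlapped the span of a member gene and 23 lay within 1 kb of an annotated start. Their length ran from 162 to 1638 bp, with a median of 466.5 bp. A peak was kept in all 12 libraries for 84 of them (46.7%), against 44.5% of all tested regions. Of the 23 regions at starts, 16 were kept in all 12 libraries, against 68 of the 157 regions away from starts.

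A region at an annotated start or span end was kept in all 12 libraries for 8 of the 9 members and in 9 libraries for Igf1. For each gene the strongest region within 1 kb of an annotated start was used. On the log2 scale, over the 12 libraries, it averaged 3.93 ± 0.14 (SD) for Stat5a, 3.88 ± 0.14 for Stat5b, 3.65 ± 0.28 for Jak2, 3.18 ± 0.15 for Igfals, 3.03 ± 0.16 for Cish, 2.79 ± 0.26 for Ghr, 2.39 ± 0.28 for Socs2, 2.15 ± 0.19 for Bcl6 and 1.60 ± 0.24 for Igf1. The order thus ran from Stat5a and Stat5b at the top to Bcl6 and Igf1 at the bottom. Neighbours in this order differed by more than the larger of their SDs only between Jak2 and Igfals, Ghr and Socs2, and Bcl6 and Igf1. Since the strand of Socs2 is not in the annotation used, its region is one at an end of the span that may not be its start. The Igf1 start region was kept in 9 of 12 libraries and never ranked above the top 56.5%. It lies at the single annotated start used, inside the span, and the beginning of the span was not ranked as a start.

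**Figure D1:**
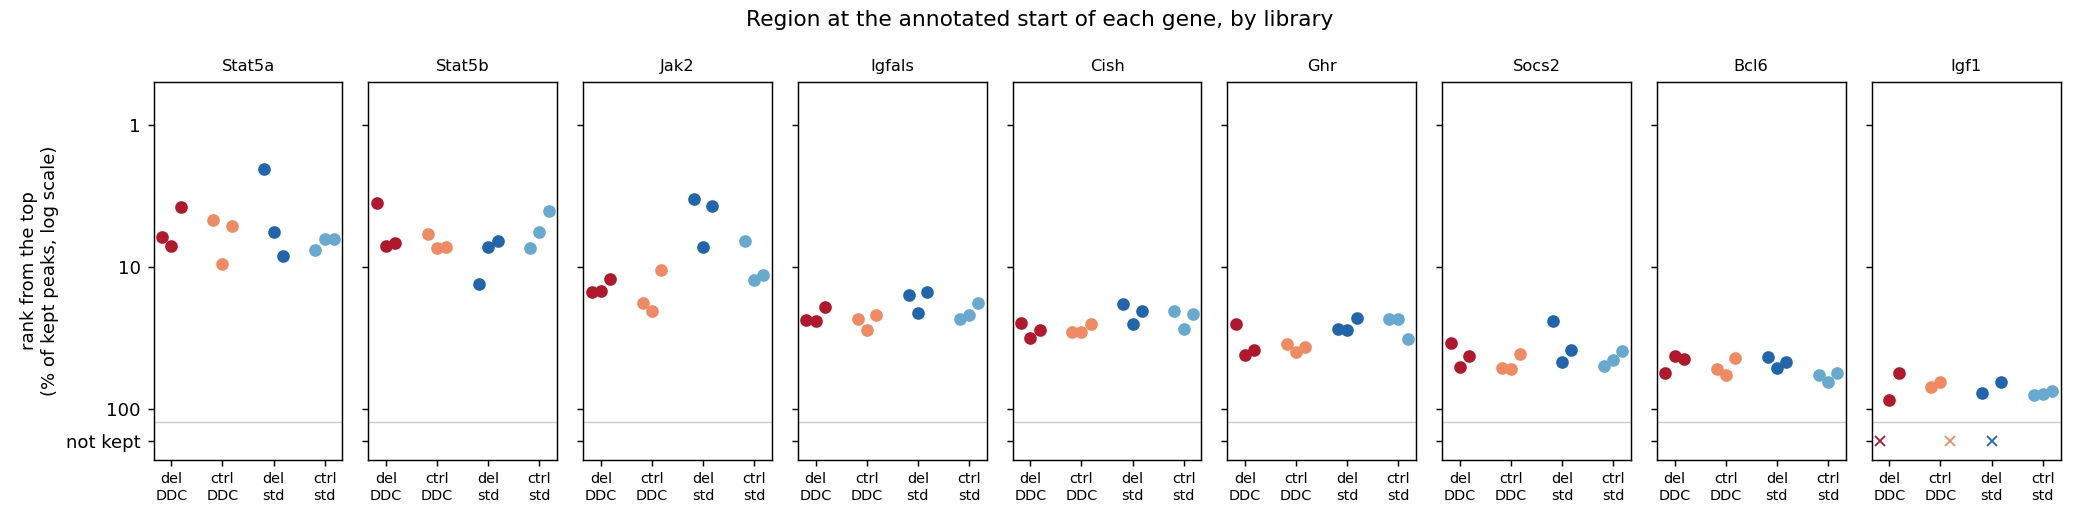
Rank of the region at the annotated start of each of the 9 genes, 1 point per library, on a reversed log axis in percent of kept peaks (del, Fbxl5-deleted; ctrl, floxed control; std, standard diet; crosses, not kept). Stat5a and Stat5b starts lie between 2.04% and 13.2% in all 12 libraries, and the Igf1 start between 56.5% and 87.2% where it was kept.

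The strongest region of a gene was in most cases not at its start. The highest was a region inside Socs2, chr10:95408407-95409100, which ranked between 0.0956% and 2.56% in all 12 libraries and averaged 4.39 ± 0.16 (SD) on the log2 scale. A region inside Ghr, chr15:3464605-3465413, averaged 4.35 ± 0.13. The other 7 genes followed: Jak2 at 3.99 ± 0.16, Igfals at 3.99 ± 0.26 (inside the neighbouring gene Mapk8ip3), Stat5b at 3.97 ± 0.15 (inside Ghdc), Stat5a at 3.93 ± 0.14 (its start), Cish at 3.80 ± 0.14, Igf1 at 3.76 ± 0.54 and Bcl6 at 3.61 ± 0.42. No neighbours in the order of these 7 differed by more than the larger of their SDs. Igf1 had the widest SD of the 9, and its strongest region was the one called between diets in both genotypes.

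The diet comparisons asked how DDC feeding changed the accessibility of the axis in each genotype. In Fbxl5-deleted mice 1 of the 180 regions was called (limma, Benjamini-Hochberg adjusted p under 0.05 over all 138538 regions), a share of 0.556% against 3.17% of all tested regions, of which 2.43% rose and 0.743% fell. This was a region upstream of Igf1, which rose. The count was 3 without library 1 of the Fbxl5-deleted standard-diet mice and 2 without Fbxl5-deleted DDC library 1.

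In floxed controls 6 of the 180 regions rose and 4 fell on DDC, a share of 5.56% against 7.02% of all tested regions, of which 4.66% rose and 2.36% fell. The share of called regions in the axis did not exceed that of all tested regions in either genotype. In controls, regions of Igf1 (3 up), Ghr (1 up, 2 down), Socs2 (1 up, 1 down), Cish (1 up) and Stat5a (1 down) were called, and none of Jak2, Igfals or Bcl6. The region called for Stat5a also lies within the Stat5b window. The median difference over the 180 regions was −0.06 in Fbxl5-deleted mice and −0.07 in controls, against 0.01 in Fbxl5-deleted mice and −0.01 in controls over all tested regions. The split of 6 up and 4 down in controls was 13 and 2 with all deposited peaks, 7 and 9 when peaks were ranked by −log10 p, 4 and 1 with a −log10 q of at least 2, 3 and 4 with only the groups compared in the fit, and 1 and 3 with the median fold enrichment of each library as a covariate. The split was 3 and 1, a count of 4, without control standard-diet library 2, without control DDC library 1 or without control DDC library 2.

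All 10 regions called in controls differed in the same direction in Fbxl5-deleted mice, against 91.9% of the 9728 regions called in controls genome-wide. Across the 180 regions 126 (70.0%) had the same sign in both genotypes, against 67.6% of all tested regions. These comparisons use separate libraries. The difference of the diet effects between genotypes was called for 0 member regions and 0 of all tested regions (limma, lowest adjusted p among members 0.847). At an unadjusted p under 0.05 there were 7 of the 180 member regions, a lower share than the 5.87% (8133) of all tested regions. The fewer calls in Fbxl5-deleted mice are therefore not shown to be a smaller diet effect.

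**Figure D2:**
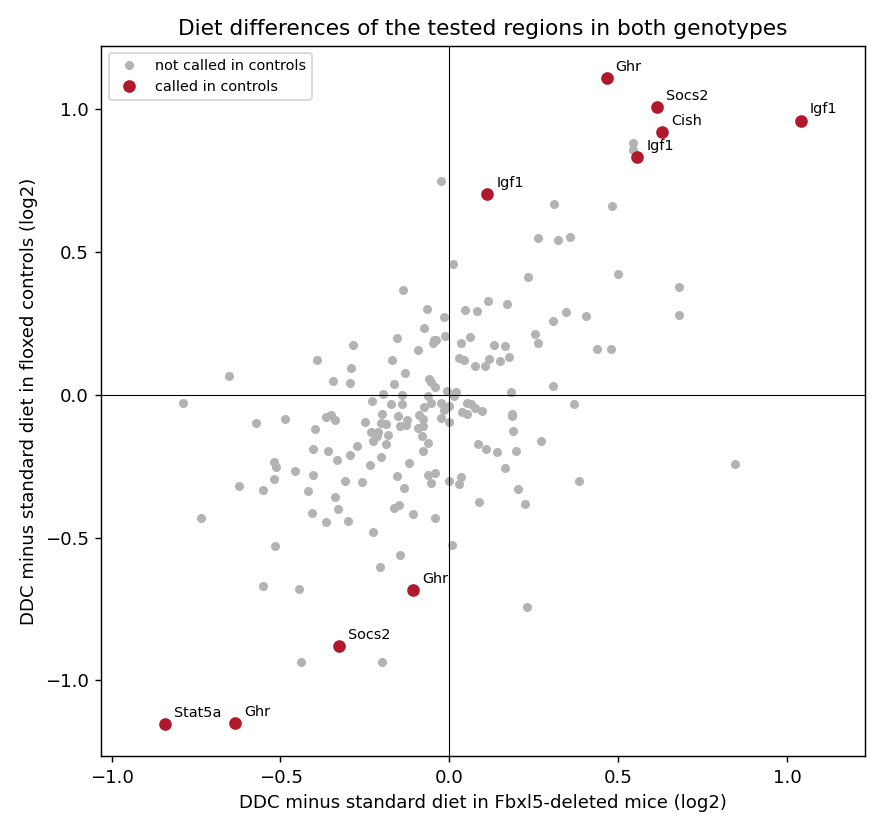
Difference between DDC and the standard diet (rank-based log2 fold enrichment) of the 180 tested regions, in Fbxl5-deleted mice on the x axis and in floxed controls on the y axis. The 10 regions called in controls, in red with their gene, all lie in the quadrants of equal sign. An Igf1 region lies at 1.04 in Fbxl5-deleted mice and 0.96 in controls, and the Stat5a region at −0.84 in Fbxl5-deleted mice and −1.15 in controls.

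The receptor gene Ghr spans chr15:3317755-3583352 and had 3 called regions in controls, in both directions. A region inside the gene, chr15:3428718-3429744, ranked at 25.6%, 23.9% and 29.9% in Fbxl5-deleted DDC libraries, 19.5%, 21.3% and 16.2% in control DDC libraries, 50.5%, 48.4% and 22.5% in Fbxl5-deleted standard-diet libraries and 51.7%, 45.0% and 54.9% in control standard-diet libraries. It was stronger in all 3 control DDC libraries than in any control standard-diet library, whereas Fbxl5-deleted standard-diet library 3 lay within the DDC range. The difference in Fbxl5-deleted mice was 0.47 ± 0.24 (SE; limma, adjusted p = 0.327), and in controls the region rose by 1.11 ± 0.24 (adjusted p = 0.00732). With the median fold enrichment of each library as a covariate the adjusted p in controls was 0.0514.

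A second region inside Ghr, chr15:3341533-3342462, fell on DDC in controls. It ranked at 89.7%, 53.7% and 70.5% in Fbxl5-deleted DDC libraries, at 96.2% and 62.5% with 1 library not kept in control DDC mice, at 50.5%, 35.7% and 43.3% in Fbxl5-deleted standard-diet libraries and at 31.1%, 31.8% and 42.5% in control standard-diet libraries. The diets did not overlap within either genotype. The difference was −0.63 ± 0.27 in Fbxl5-deleted mice (limma, adjusted p = 0.220) and −1.15 ± 0.27 in controls (adjusted p = 0.0118). Without control standard-diet library 2, control DDC library 1 or control DDC library 2 the adjusted p in controls was 0.0507, 0.0507 or 0.0667, with all deposited peaks it was 0.204, and with no filter on regions 0.0646. Another region, chr15:3311856-3312139 and 5616 bp outside the gene, was kept in 0 of 3 Fbxl5-deleted DDC lists, 0 of 3 control DDC lists, 1 of 3 Fbxl5-deleted standard-diet lists and 3 of 3 control standard-diet lists, the last at 54.6%, 63.3% and 60.8%. It could be tested only because of the control standard-diet lists, and its loss on DDC was called in controls (limma, adjusted p = 0.0142). That adjusted p was 0.0549 without control DDC library 1, 0.0640 without control DDC library 2, 0.130 with no filter on regions and 0.0662 with only the groups compared in the fit.

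The remaining regions of Ghr were not called, and its start was among them. The region at the Ghr start, chr15:3581877-3582556, ranked at 25.5%, 41.8% and 38.7% in Fbxl5-deleted DDC libraries, 35.3%, 40.2% and 36.8% in control DDC libraries, 27.7%, 28.2% and 22.9% in Fbxl5-deleted standard-diet libraries and 23.5%, 23.5% and 32.6% in control standard-diet libraries. It ranked lower in all 3 control DDC libraries than in the control standard-diet libraries, but the difference of −0.40 ± 0.21 did not pass (limma, adjusted p = 0.288). Its strongest region differed between diets by 0.02 ± 0.11 in Fbxl5-deleted mice and 0.01 ± 0.11 in controls.

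Jak2, which encodes the receptor's kinase and spans chr19:29251803-29313095, had no called region. Its start region, chr19:29250946-29252206, ranked at 15.2%, 14.9% and 12.1% in Fbxl5-deleted DDC libraries, 18.1%, 20.5% and 10.5% in control DDC libraries, 3.34%, 7.22% and 3.71% in Fbxl5-deleted standard-diet libraries and 6.58%, 12.4% and 11.5% in control standard-diet libraries. The diets did not overlap in Fbxl5-deleted mice and did overlap in controls. The differences were −0.52 ± 0.15 in Fbxl5-deleted mice (limma, adjusted p = 0.0641) and −0.29 ± 0.15 in controls (adjusted p = 0.268). A region 9744 bp outside the gene, chr19:29241604-29242059, was kept in 2 of 3 Fbxl5-deleted DDC lists, 2 of 3 control DDC lists and no standard-diet list. It did not pass in controls (limma, adjusted p = 0.0900). Without 1 control library the adjusted p ran from 0.00790 to 0.303. The lowest came without control DDC library 3, whose kept list lacked the region. With all deposited peaks the adjusted p was 0.0109.

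The transcription factor genes lie side by side, Stat5b at chr11:100780731-100859004 on the minus strand and Stat5a at chr11:100859351-100885169 on the plus strand. A region inside Stat5a, chr11:100879562-100879872, was kept in 1 of 3 Fbxl5-deleted DDC lists, 0 of 3 control DDC lists, 3 of 3 Fbxl5-deleted standard-diet lists and 3 of 3 control standard-diet lists. It ranked at 94.5% in the single Fbxl5-deleted DDC list, at 77.4%, 43.6% and 41.1% in Fbxl5-deleted standard-diet lists and at 37.0%, 34.2% and 56.9% in control standard-diet lists. The difference in Fbxl5-deleted mice was −0.84 ± 0.27 with an adjusted p of 0.0926 (limma). Without 1 Fbxl5-deleted library that adjusted p ran from 0.0344, without standard-diet library 1, to 0.240. The loss on DDC was called in controls (adjusted p = 0.0111), where the adjusted p was 0.0544 without control standard-diet library 2, 0.136 with a −log10 q of at least 2 and 0.0621 with no filter on regions. The region lies 6934 bp from the neighbouring gene Stat3, whose factor is activated by interleukin 6, so it may not belong to Stat5a.

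The starts of both STAT5 genes were strong and were not called. The Stat5a start region, chr11:100860029-100860946, ranked at 6.18%, 7.17% and 3.79% in Fbxl5-deleted DDC libraries, 4.71%, 9.50% and 5.18% in control DDC libraries, 2.04%, 5.68% and 8.39% in Fbxl5-deleted standard-diet libraries and 7.67%, 6.34% and 6.36% in control standard-diet libraries. All 4 groups overlapped. The Stat5b region used for its start, chr11:100822241-100822808, lies at an annotated start within the gene and ranked between 3.58% and 13.2%. The diet difference at the Stat5a start was −0.04 ± 0.13 in Fbxl5-deleted mice and 0.03 ± 0.13 in controls. At the Stat5b start it was 0.18 ± 0.13 in Fbxl5-deleted mice and −0.07 ± 0.13 in controls.

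Igf1, which encodes the hormone that carries much of growth hormone's effect on the body, spans chr10:87858265-87937047 and held the 1 member region called between diets in both genotypes. A region 9703 bp outside the span, chr10:87847604-87848562, has its centre at −13028 bp from the start whose promoter is printed above. It ranked at 1.51%, 1.90% and 3.34% in Fbxl5-deleted DDC libraries, 1.65%, 1.69% and 1.69% in control DDC libraries, 25.2%, 18.9% and 19.3% in Fbxl5-deleted standard-diet libraries and 11.8%, 24.8% and 17.2% in control standard-diet libraries. All 6 DDC libraries had it among the top 3.34% of peaks, and no standard-diet library had it above 11.8%. The authors' fold enrichment at the peak was 17.0 to 20.3 in Fbxl5-deleted DDC libraries, 20.1 to 22.7 in control DDC libraries, 6.11 to 9.99 in Fbxl5-deleted standard-diet libraries and 8.44 to 11.8 in control standard-diet libraries. The region rose by 1.04 ± 0.14 (SE) in Fbxl5-deleted mice (limma, adjusted p = 0.000415) and by 0.96 ± 0.14 in controls (adjusted p = 0.000365). The difference between these effects was 0.08 ± 0.20 (adjusted p = 0.976). The 2 genotypes differed by −0.06 ± 0.14 on DDC and by −0.14 ± 0.14 on the standard diet, neither called.

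In Fbxl5-deleted mice 14 of the 16 alternatives tried kept this call. The exceptions were a join that required 50% reciprocal overlap (1.71, adjusted p = 0.228) and the covariate for median fold enrichment (0.96, adjusted p = 0.0507). With libraries 1 and 3 of the Fbxl5-deleted standard-diet mice left out, the rise was 0.95 (adjusted p = 0.0299). In controls the rise was called under all 16 alternatives tried, with differences of 0.81 to 2.33. The alternative ranked by −log10 p is on a log2 scale of −log10 p, not of fold enrichment.

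**Figure D3:**
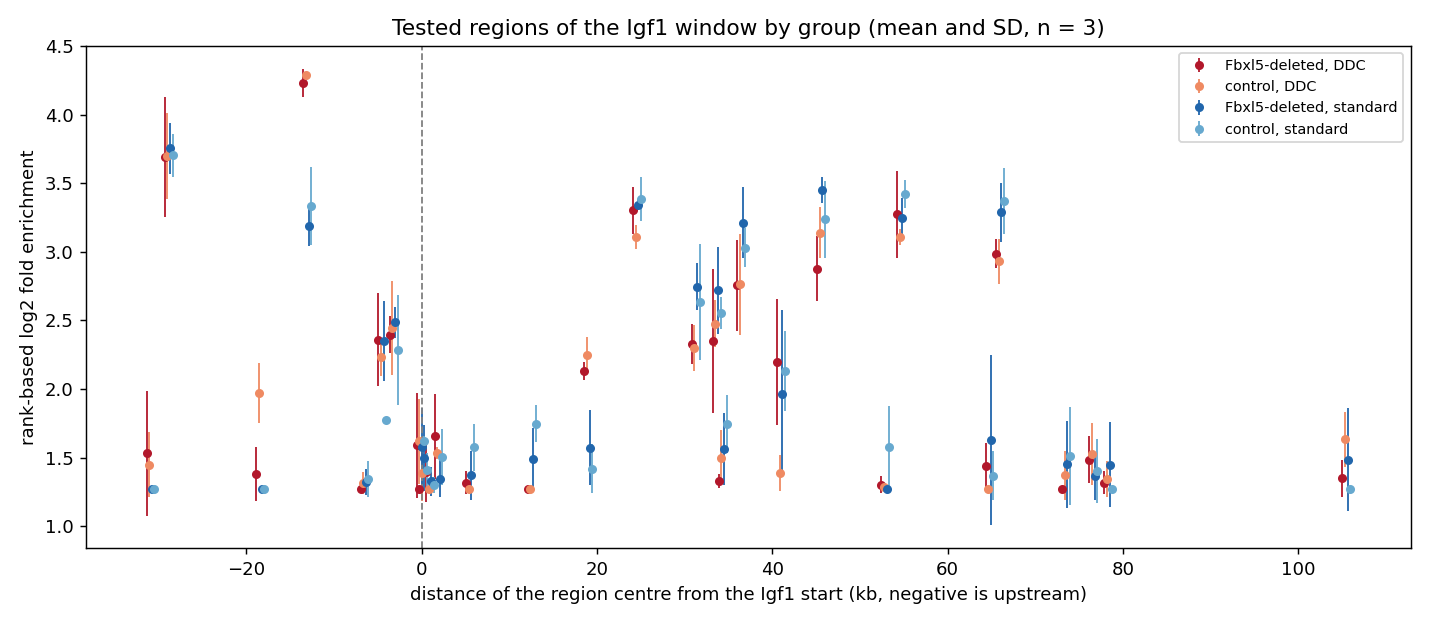
Mean rank-based log2 fold enrichment (y axis) of the tested Igf1 regions by group, with SD bars over 3 libraries, against the distance of the region centre from the Igf1 start in kb (x axis, groups offset slightly; dashed line, start). The region at −13028 bp averages 4.23 in Fbxl5-deleted and 4.29 in control mice on DDC, and 3.19 in Fbxl5-deleted and 3.33 in control mice on the standard diet, while the region at the start lies low in all 4 groups.

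A second upstream Igf1 region was kept on DDC alone and could be tested only because of the control DDC lists. It lies at chr10:87842562-87842865, 15400 bp outside the span, and was kept in 1 of 3 Fbxl5-deleted DDC lists, 3 of 3 control DDC lists and no standard-diet list. It ranked at 79.5% in the single Fbxl5-deleted list and at 50.7%, 56.4% and 70.4% in control DDC lists, and it was called in controls (limma, adjusted p = 0.0177). The call was lost without control standard-diet library 1, 2 or 3 (adjusted p 0.0600, 0.0657 and 0.0646), with no filter on regions (0.140), with only the groups compared in the fit (0.0734) and with the covariate (0.126). Another region, inside the gene at chr10:87879805-87880475, ranked no lower than 54.9% in any Fbxl5-deleted DDC library and at 53.1%, 45.2% and 44.6% in control DDC libraries. It ranked at 75.5% and 66.8% in Fbxl5-deleted standard-diet libraries and 78.7% and 95.5% in control standard-diet libraries, and 1 library of each of these groups lacked it. The difference was 0.56 ± 0.24 in Fbxl5-deleted mice (adjusted p = 0.234) and 0.83 ± 0.24 in controls (adjusted p = 0.0412). Its call in controls was lost under 12 of 16 alternatives, among them leaving out any 1 of the 6 control libraries (adjusted p 0.0635 to 0.132). The Igf1 start region itself, chr10:87860865-87861123, was kept in 2 of 3 libraries of each group except control standard-diet mice, where it was kept in 3 of 3, and its diet differences were 0.01 ± 0.25 in Fbxl5-deleted mice and −0.01 ± 0.25 in controls.

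Igfals, at chr17:24877844-24882011, encodes the subunit that holds IGF1 in a long-lived complex in blood, and none of its 12 regions was called. Its start region, chr17:24877238-24878875, covers both promoters with a TTCNNNGAA and ranked between 15.1% and 27.9% in all 12 libraries. The difference was −0.21 ± 0.17 in Fbxl5-deleted mice and −0.13 ± 0.17 in controls. A region 28739 bp outside the gene, chr17:24848654-24849105, was kept in 0 of 3 lists of either DDC group and in 3 of 3 lists of either standard-diet group. Its ranks were low, 58.4% to 67.7% in Fbxl5-deleted standard-diet lists and 66.8% to 88.8% in control standard-diet lists, and it was not called in Fbxl5-deleted mice (limma, adjusted p = 0.0640) or controls (adjusted p = 0.324). It passed in Fbxl5-deleted mice among regions kept in at least 6 libraries (adjusted p = 0.0404) and, in Fbxl5-deleted mice and controls, when peaks were ranked by −log10 p (adjusted p = 0.0401 and 0.0266).

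Among the inhibitors, Cish encodes CIS, a feedback brake on STAT5, and spans chr9:107296659-107302784. A region 3094 bp outside the gene, chr9:107305878-107306479, ranked at 58.6%, 54.6% and 62.5% in Fbxl5-deleted DDC libraries and at 35.3%, 46.2% and 47.98% in control DDC libraries. On the standard diet it was kept in 1 library of each genotype, at 88.0% in Fbxl5-deleted and 63.5% in control mice. All 6 DDC libraries thus held it above both of those. The difference in Fbxl5-deleted mice was 0.63 ± 0.25 (limma, adjusted p = 0.184), and in controls the region rose by 0.92 ± 0.25 (adjusted p = 0.0281). The call in controls was lost without control standard-diet library 1 or 2 (adjusted p 0.108 and 0.118) and without control DDC library 1 or 2 (0.110 and 0.0631). It was also lost with no filter on regions (adjusted p = 0.146), with only the groups compared in the fit (0.0588) and with the covariate (0.0960). The Cish start, chr9:107296403-107297456, which covers the promoter printed above, ranked between 18.2% and 31.6% in all 12 libraries and was not called, with differences of −0.27 ± 0.18 in Fbxl5-deleted mice and −0.18 ± 0.18 in controls. Its neighbour chr9:107307494-107308800 ranked at 38.3%, 31.5% and 36.4% in Fbxl5-deleted DDC libraries, against 18.04%, 20.2% and 17.7% in Fbxl5-deleted standard-diet libraries. It did not pass (−0.65 ± 0.19, adjusted p = 0.0613), nor did the difference between the diet effects of the genotypes (−0.72 ± 0.27, adjusted p = 0.847).

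Socs2, whose product limits growth hormone receptor signalling, spans chr10:95383903-95417321 and had 1 called region in each direction, both more than 23 kb outside the gene. The region chr10:95440662-95441050, 23341 bp outside, ranked at 35.6%, 38.3% and 54.3% in Fbxl5-deleted DDC libraries, 37.1%, 37.3% and 40.5% in control DDC libraries and 76.1%, 73.4% and 54.9% in Fbxl5-deleted standard-diet libraries. In control standard-diet libraries it ranked at 98.8% and 57.0% and was not kept in 1. It differed by 0.62 ± 0.27 in Fbxl5-deleted mice (limma, adjusted p = 0.234) and rose by 1.01 ± 0.27 in controls (adjusted p = 0.0258). The region chr10:95354602-95354891, 29012 bp outside, was kept in 1 of 3 Fbxl5-deleted DDC lists, 1 of 3 control DDC lists, 2 of 3 Fbxl5-deleted standard-diet lists and 3 of 3 control standard-diet lists, the last at 53.9%, 48.1% and 46.7%. The difference was −0.33 ± 0.23 in Fbxl5-deleted mice (adjusted p = 0.487) and −0.88 ± 0.23 in controls (adjusted p = 0.0222), where it fell. Both calls depended on single libraries and on the processing. The rise was no longer called without control standard-diet library 1 or 3 or any 1 control DDC library (adjusted p 0.0940, 0.109, 0.0773, 0.0855 and 0.0517), with 50% reciprocal overlap (0.0878), with no filter on regions (0.127) or with the covariate (0.169). The fall was no longer called without control standard-diet library 2 or 3 or any 1 control DDC library (adjusted p 0.0601, 0.0633, 0.0521, 0.0844 and 0.0623), with a −log10 q of at least 2 (0.105), with all deposited peaks (0.162), with no filter on regions (0.123) or with the covariate (0.0560). The strongest Socs2 region, inside the gene, differed by −0.04 ± 0.11 in Fbxl5-deleted mice and 0.19 ± 0.11 in controls, neither called.

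Bcl6, at chr16:23965050-23988866, encodes a transcriptional repressor, and none of its 19 regions was called. Its strongest region, chr16:23962372-23962943 and 2107 bp outside the gene, ranked at 6.08%, 9.58% and 8.15% in Fbxl5-deleted DDC libraries, 7.11%, 8.48% and 2.48% in control DDC libraries, 13.2%, 21.0% and 35.1% in Fbxl5-deleted standard-diet libraries and 14.7%, 19.7% and 5.06% in control standard-diet libraries. The diets did not overlap in Fbxl5-deleted mice and did overlap in controls. The difference was 0.68 ± 0.20 in Fbxl5-deleted mice (limma, adjusted p = 0.0771) and 0.38 ± 0.20 in controls (adjusted p = 0.305). Without 1 Fbxl5-deleted library the adjusted p in Fbxl5-deleted mice ran from 0.0309, without standard-diet library 1, to 0.280. A region 17171 bp outside the gene, chr16:24006037-24006298, was at −0.20 ± 0.29 in Fbxl5-deleted mice and at −0.94 ± 0.29 in controls (adjusted p = 0.0567). It passed in controls with only the groups compared in the fit (adjusted p = 0.0463) and when libraries 1 and 3 of the Fbxl5-deleted standard-diet mice were left out (adjusted p = 0.0380). The promoter with 3 matches, printed above, was overlapped by a region kept in all 12 libraries, chr16:23981323-23981726, whose rank was between 44.4% and 79.6% and whose difference was −0.34 ± 0.24 in Fbxl5-deleted mice and −0.09 ± 0.24 in controls.

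**Figure D4:**
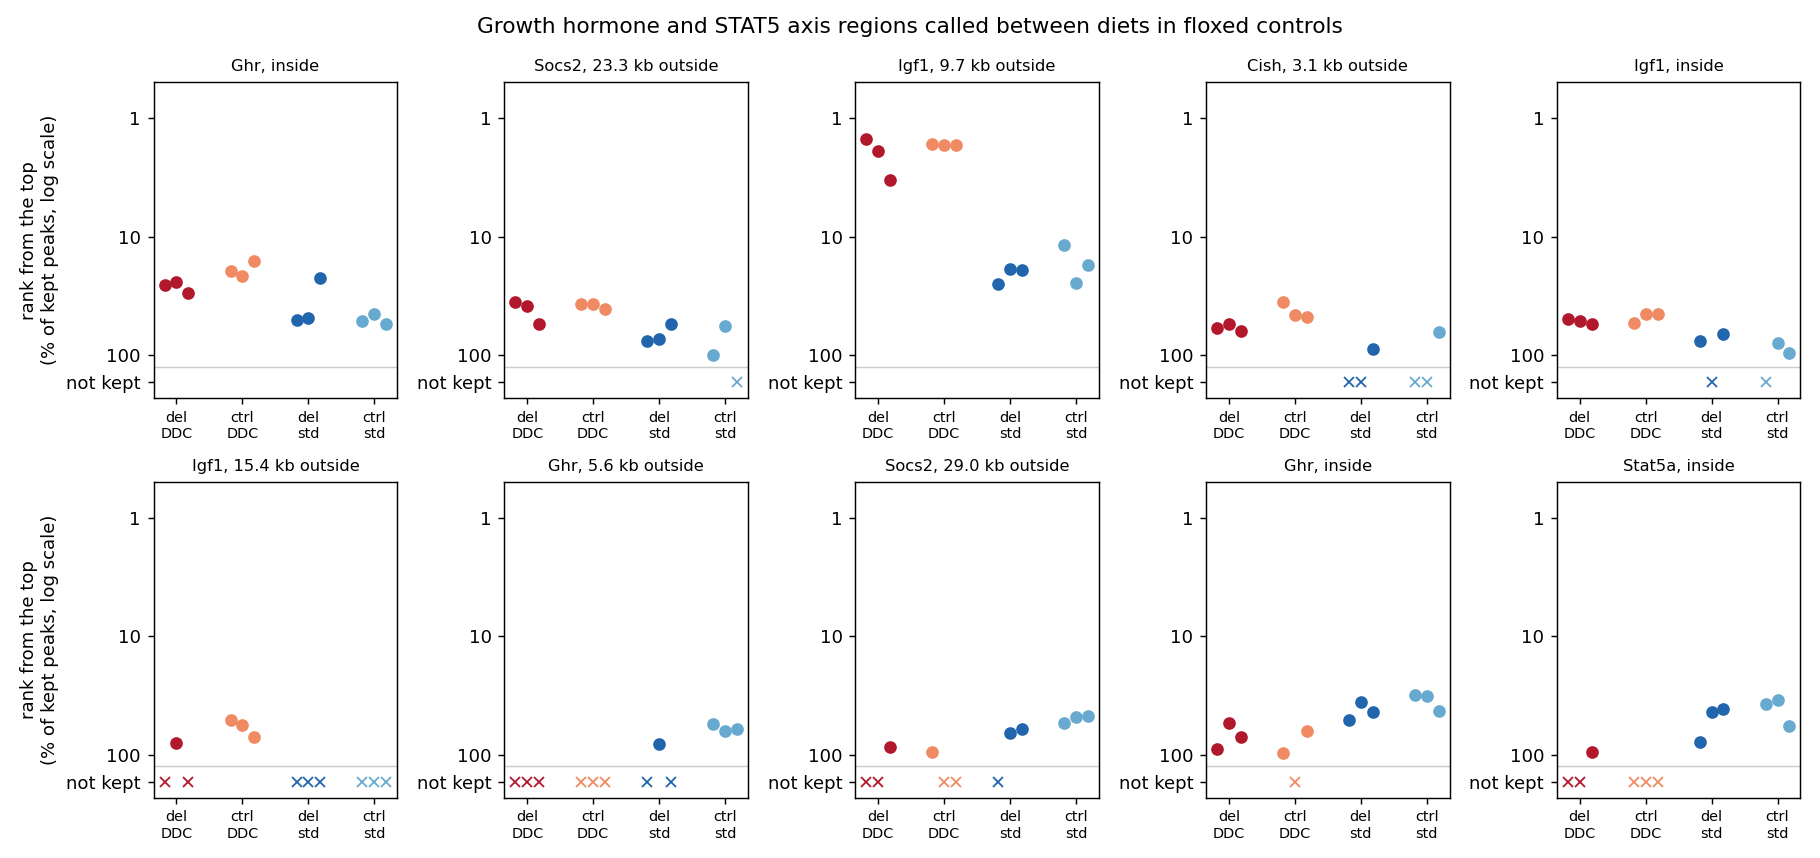
Rank of the 10 regions called between diets in floxed controls, 1 panel per region and 1 point per library, on a reversed log axis in percent of kept peaks (del, Fbxl5-deleted; ctrl, floxed control; std, standard diet; crosses, not kept). The Igf1 region 9703 bp outside the gene is in all 12 libraries and separates the diets in both genotypes, and the Stat5a region is absent from all 3 control DDC libraries.

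Of the 10 called regions 4 lay inside the gene span and 6 outside it, against 110 and 70 of the 180 tested regions. None lay within 1 kb of an annotated start, where 23 of the 180 tested regions lay, a share that leaves few to expect among 10. Only 2 of the 10 were kept in all 12 libraries, and 3 were absent from every list of the group in which they were lower. The Ghr region outside its gene and the second upstream Igf1 region could be tested only because of the group in which they were higher. Of the 84 member regions kept in all 12 libraries 2 were called, and of the 96 kept in 3 to 11 libraries 8 were called. Called regions were not split in these ways over all tested regions, so the counts show nothing particular to the axis.

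The number of member regions listed differed between diets in the lists of equal length. It was 150, 134 and 151 in Fbxl5-deleted DDC libraries, 149, 146 and 138 in control DDC libraries, 140, 163 and 163 in Fbxl5-deleted standard-diet libraries and 164, 179 and 178 in control standard-diet libraries. The diets did not overlap in controls and overlapped in Fbxl5-deleted mice through standard-diet library 1. The mean was 144.7 on DDC and 164.5 on the standard diet, a difference of −19.83 (exact permutation test within genotype, two-sided, p = 0.015, smallest possible 0.005, n = 6 libraries per diet). Relative to the standard diet the mean on DDC was −12.06% for member regions and 2.16% for all joined regions. With all deposited peaks in place of the equal lists the difference was −17 (exact permutation test, p = 0.085). Control counts were then 185, 191 and 188 on DDC and 189, 195 and 178 on the standard diet. The diets overlapped, and both the highest and the lowest control count were on the standard diet. Fbxl5-deleted counts were 176, 184 and 172 on DDC and 221, 191 and 224 on the standard diet. The highest of these belonged to standard-diet libraries 1 and 3, which had the longest peak lists. The difference of −17 thus lay in Fbxl5-deleted mice and was not seen in controls. Between genotypes the mean was 150.2 in Fbxl5-deleted and 159.0 in control libraries, a difference of −8.83 (exact permutation test within diet, p = 0.205).

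Deletion of Fbxl5 gave no called member region. On DDC, 0 of 180 regions were called between Fbxl5-deleted and control mice, against 0% of all tested regions (limma, lowest adjusted p among members 0.464). There 6 of the 180 had an unadjusted p under 0.05, a lower share than the 5.94% of all tested regions. On the standard diet, 0 of 180 were called, against 0.000722% or 1 region of all tested (limma, lowest adjusted p among members 0.297). There 12 of the 180 had an unadjusted p under 0.05, a lower share than the 8.09% of all tested regions. The median difference over members was 0.02 on DDC and 0.04 on the standard diet. The lowest adjusted p on the standard diet belonged to the Ghr region chr15:3311856-3312139, kept in 1 of 3 Fbxl5-deleted and 3 of 3 control lists. On DDC it belonged to the upstream Igf1 region chr10:87842562-87842865, kept in 1 of 3 Fbxl5-deleted and 3 of 3 control lists. Both regions could be tested only because of those control lists.

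Other genes of the pathway were examined by the same rule. A list of 18 genes of growth hormone receptor signalling and its brakes held 323 tested regions, 9 of them shared with the 9 genes above. In Fbxl5-deleted mice 2 rose and none fell on DDC, 0.619% of them against 3.17% of all tested regions, and in controls 13 rose and 4 fell, 5.26% of them against 7.02% of all. The median difference was −0.03 in Fbxl5-deleted mice and −0.06 in controls. Both regions called in Fbxl5-deleted mice also rose in controls. One lies 28751 bp outside Socs1, a feedback inhibitor of JAK kinases, at chr16:10754378-10755057, and was at 1.53 ± 0.26 in Fbxl5-deleted mice and 1.60 ± 0.26 in controls (limma, adjusted p = 0.00206 and 0.000663). A Socs1 region close by, chr16:10757514-10758107, was called in the other direction in controls, at −1.05 ± 0.25 (adjusted p = 0.0139), and was at −0.32 ± 0.25 in Fbxl5-deleted mice. The other region called in Fbxl5-deleted mice lies inside Ptpn11, which encodes the phosphatase SHP2, and was at 1.43 ± 0.27 in Fbxl5-deleted mice and 1.70 ± 0.27 in controls (adjusted p = 0.00458 and 0.000535). Of regions called in controls alone, 1 of Prlr, the prolactin receptor, was at 1.52 ± 0.30 and 1 near Sh2b1, a JAK2 adaptor, at 0.93 ± 0.20, and a region inside Stat3 was at −0.59 ± 0.15. Lyn, a Src-family kinase, and Ptpn6, the phosphatase SHP1, are strongly expressed in myeloid cells and had 5 of the 13 rising regions. Of these 5, 1 of Lyn and 1 of Ptpn6 were kept in the 3 control DDC lists alone. Another of Lyn, kept in 5 lists, and the other of Ptpn6, kept in 4, also included all 3 control DDC lists. All but the Lyn region chr4:3760582-3760981 could thus be tested only because of the control DDC lists. The control DDC libraries also held 3 to 5 of the 8 myeloid markers, and the part of myeloid cells was not tested.

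The IGF system list of 14 genes held 191 tested regions, of which 4 rose and 1 fell in Fbxl5-deleted mice, 2.62% of them against 3.17% of all tested regions, and 11 rose and 11 fell in controls, 11.5% of them against 7.02% of all (4.66% higher and 2.36% lower). The median difference was −0.04 in Fbxl5-deleted mice and −0.09 in controls. Igf2r, which encodes a receptor that clears IGF2, had a region inside the gene, chr17:12714985-12715618, at 1.28 ± 0.29 in Fbxl5-deleted mice and 1.93 ± 0.29 in controls (limma, adjusted p = 0.0170 and 0.000350). A region 27440 bp outside the insulin receptor gene Insr rose by 1.11 ± 0.27 in Fbxl5-deleted mice and by 1.35 ± 0.27 in controls. Insr had 3 other regions called in controls, 2 of them lower, at −0.93 ± 0.19 and −1.08 ± 0.22, and 1 higher, at 0.86 ± 0.23. In controls alone, a region near Igfbp6, an IGF-binding protein gene, was called at 1.59 ± 0.28, and one near Stc2, whose product inhibits pappalysins, at 1.53 ± 0.34. Pappa2, which encodes a protease of IGF-binding proteins, had 3 regions that fell in controls. One kept in 5 libraries and one kept in 4 could be tested only because of the control standard-diet lists. The third, kept in all 12 libraries, had the largest change. It was at 0.00 ± 0.26 in Fbxl5-deleted mice and −1.60 ± 0.26 in controls (limma, adjusted p = 0.000760). The difference between these diet effects, 1.60 ± 0.37, was not called (limma, adjusted p = 0.847). Nor was its difference between genotypes on the standard diet, −1.47 ± 0.26 (adjusted p = 0.134). A different Pappa2 region was at −1.06 ± 0.27 in Fbxl5-deleted mice (adjusted p = 0.0371). Igf1r, the receptor for IGF1, had 1 region at 1.22 ± 0.32 and 1 at −1.49 ± 0.33 in controls.

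The list of 25 genes known to depend on growth hormone or to be sex-biased in mouse liver held 372 tested regions. In Fbxl5-deleted mice 8 rose and 4 fell, 3.23% of them against 3.17% of all tested regions, and in controls 18 rose and 13 fell, 8.33% of them against 7.02% of all. These shares are near those of all tested regions, so the regions named next are examples and say nothing about the list. The median difference was 0.01 in Fbxl5-deleted mice and −0.02 in controls. Of the called regions with the largest changes, those of Elovl3, Cyp4a12a and Cyp4a12b were lower on DDC in both genotypes. Elovl3, a fatty acid elongase, had a region 6537 bp outside the gene at −1.25 ± 0.22 in Fbxl5-deleted mice and −0.92 ± 0.22 in controls. Cyp4a12a was at −1.28 ± 0.26 in Fbxl5-deleted mice and −0.94 ± 0.26 in controls, and Cyp4a12b at −1.004 ± 0.27 in Fbxl5-deleted mice and −1.19 ± 0.27 in controls. The Cyp4a12 genes are near-identical copies, so their values are uncertain. Cyp7b1, which encodes an oxysterol hydroxylase, had 2 regions called in controls alone, at −1.19 ± 0.30 and −0.998 ± 0.30.

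Regions of Cyp2b9 and Cux2 were called as higher on DDC in both genotypes. Cyp2b9, a cytochrome P450, had a region inside the gene at 1.33 ± 0.25 in Fbxl5-deleted mice and 1.07 ± 0.25 in controls. Cux2, a repressor gene, had one 4091 bp outside the gene at 0.94 ± 0.26 in Fbxl5-deleted mice and 1.22 ± 0.26 in controls. A different Cux2 region, inside the gene, was called at −1.25 ± 0.27 in Fbxl5-deleted mice, so the regions of Cux2 did not all move one way. Pparg, a lipid-regulating nuclear receptor gene, had a region 10486 bp outside the gene that was kept in 3 of 3 lists of either DDC group and 0 of 3 of either standard-diet group.

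The genes whose mean level over tested regions followed each member most closely over the 12 libraries were found among 17236 genes with at least 3 tested regions more than 1 Mb away. Pearson's r was 0.908 between Ghr and H3c8, 0.932 between Jak2 and Tmem208, 0.928 between Stat5a and Rundc3a, 0.956 between Stat5b and Inhbc, 0.874 between Igf1 and Tonsl, 0.949 between Igfals and Gstm3, 0.844 between Cish and Izumo4, 0.950 between Socs2 and Rab14 and 0.929 between Bcl6 and Sox13. These describe the 12 libraries, which fall into 4 groups and share depth and list quality within a library, and they were picked as the highest of many.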

How the data were processed

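ATAC-seq libraries of hepatocytes from 12 mice were analysed from 12 peak lists. The submitters' processing notes name MACS2, deepTools, bedtools, Picard, SAMtools, Bowtie2 and fastp, without versions, and the build mm10. How they were ordered, with which parameters, and whether cut sites were shifted is not stated there. The authors called peaks per library, without pooling, and deposited for each peak a fold enrichment (ratio over background), a −log10 p and a −log10 q. Depth is known only through the peaks, of which 46949 to 86745 per library had a −log10 q of at least 5.

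Rows sharing coordinates were counted once, on chromosomes 1 to 19, X and Y. Each library was reduced to its top 137034 peaks in fold enrichment, and these were joined where they overlapped by at least 1 bp. Regions kept in at least 3 of 12 libraries were tested on ranks mapped to the mean log2 distribution, with 1.27 for absence. limma 3.58.1 in R 4.3.3 (trend and robust settings, 4 group means) was used for tests, with Benjamini-Hochberg adjustment over all tested regions, two-sided. The scripts were tested on simulated data. Python 3.11.15, numpy 2.4.6, pandas 2.3.3 and matplotlib 3.10.9 were used. Gene spans came from RefSeq GRCm38.p6, with no exons, so positions are given as inside or outside a gene.

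The members, gene lists and marker lists were chosen with earlier results of these data known. Regions were named by rule: the one at each start, each called one, each gene's strongest and the one with the smallest p in each diet comparison; in the other lists, up to 10 called regions with the largest change, where further regions of the same genes were added after their values were seen. Some regions that the rule names are not reported here. Replicates are separate mice per the labels. Same-numbered libraries of different groups did not deviate together (r −0.024 to 0.056 over 18 pairs, limit 0.1), so numbers were not used to pair samples.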

Additional observations from a re-analysis of the deposited data

How the results depend on the processing

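The count of 1 member region called between diets in Fbxl5-deleted mice was 2 with a −log10 q of at least 2, 4 among regions in at least 6 libraries, 5 when ranked by −log10 p and 0 with median fold enrichment as a covariate. It was 1 to 3 without 1 library. The count of 10 in controls was 5 with a −log10 q of at least 2, 6 with 50% reciprocal overlap, 2 with no filter on regions, 16 when ranked by −log10 p and 4 with the covariate. It was 4 to 8 without 1 control library, and the counts of 0 for genotype and for the difference of diet effects were 0 without any 1 library. Between genotypes on DDC, 50% reciprocal overlap called 1 region, chr11:100908148-100908997 inside Stat3 (1.60 ± 0.19, adjusted p = 0.00596). With a replicate block the counts were 1 in Fbxl5-deleted mice, 10 in controls and 0 elsewhere, and the Igf1 region inside the gene had an adjusted p of 0.0541 in controls, a lost call. The number of listed member regions differed between diets by −23.67 to −17.08 without 1 library (exact permutation p 0.005 to 0.045). With all deposited peaks it differed by −17 (exact permutation p = 0.085), and the diets overlapped in controls. Between genotypes it differed by −11.25 to −5 without 1 library and, with the sign reversed, by 7 with all deposited peaks (exact permutation p = 0.415). None of the 11 called results reversed, and the cause of each lost call was not tested.

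Of the 57 other results for named regions, 12 were called under at least 1 alternative and 21 reversed under at least 1, none of them called when reversed. With all deposited peaks the diet difference in Fbxl5-deleted mice was −0.022 at the strongest Ghr region and −0.091 at the Igf1 start, and in controls it was 0.038 at the Stat5b start, 0.23 at the Igf1 start, 0.13 at the Igfals start, 0.11 at the Cish start and 0.27 at the Socs2 end region. With 50% reciprocal overlap it was 0.29 at the Ghr start and 0.33 at chr15:3584227-3584716 in Fbxl5-deleted mice, and −0.48 at the strongest Bcl6 region in controls. When peaks were ranked by −log10 p, values lay on a log2 scale of −log10 p, so their sizes do not compare with those on fold enrichment. The diet difference was then 0.016 at the Stat5a start, 0.095 at the Cish start, 0.14 at the strongest Socs2 region, 0.012 at the Socs2 end region and 0.20 at the Bcl6 start in Fbxl5-deleted mice. In controls it was −0.26 at the strongest Ghr region, 0.11 at the Cish start and 0.14 at the Socs2 end region. With the covariate it was 0.20, 0.012, 0.26 and 0.18 at the Stat5a, Igfals, Socs2 and Bcl6 starts in Fbxl5-deleted mice, and 0.0022 at the strongest Jak2 region, 0.10 at the Igf1 start, 0.033 at the Igfals start and 0.25 at the Socs2 end region in controls. With libraries 1 and 3 of the Fbxl5-deleted standard-diet mice left out it was 0.0047 at the Stat5a start, 0.13 at chr17:24869311-24869764, 0.095 at the strongest Socs2 region, 0.16 at the Socs2 end region and 0.11 at the Bcl6 start in Fbxl5-deleted mice. Leaving out 1 library gave ranges that crossed 0 in Fbxl5-deleted mice at the strongest Ghr region (−0.07 to 0.12), the Stat5a start (−0.15 to 0.086), the Igf1 start (−0.20 to 0.17), the strongest Socs2 region (−0.13 to 0.0082), the Socs2 end region (−0.38 to 0.025) and the Bcl6 start (−0.089 to 0.10). It did so in controls at the strongest Ghr region (−0.016 to 0.051), the Stat5a start (−0.026 to 0.12), the Igf1 start (−0.12 to 0.17) and chr9:107307494-107308800 (−0.031 to 0.13).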
